A study of Mus musculus with 7 samples.

Results

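A set of 10 genes that bring glucose into the cell, trap it there or hold its transporter back was followed in mouse hearts labelled as having both Akt1 and Akt2 deleted in cardiomyocytes. They were the facilitative glucose transporters Slc2a1, Slc2a3, Slc2a4, Slc2a8 and Slc2a12, the hexokinases Hk1 and Hk2, the Rab GTPase-activating proteins Tbc1d1 and Tbc1d4 (Tbc1d4 is also called AS160) and the alpha-arrestin Arrdc4. The genes were chosen by name, with earlier results of these data known. Every non-control probe whose accession maps to them was taken. That gave 10 of the 45616 genes on the array, with 17 of its 56605 non-control probes. For 23611 of the probes no gene symbol matched. Each of their identifiers counts as a gene in this and all later counts of genes. A probe was tested where its signal was flagged as well above background in 3 or more of the 7 hearts, which held for all 10 genes and for 14 of the probes.

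The hearts came from 3 double knockout mice (DKO) and 4 control mice, with 1 array per mouse. DKO mice carried MHC-mercremer heterozygously, a tamoxifen-dependent Cre recombinase driven by the alpha myosin heavy chain promoter, active in cardiomyocytes, and were homozygous for floxed AKT1 and AKT2, with loxP sites around exons 6 and 7 of AKT1 and exons 5 and 6 of AKT2. Control mice carried heterozygous MHC-mercremer alone. All mice were C57Bl/6 males of 3 months, all received 500 µg of hydroxytamoxifen daily for 5 days, and RNA of the heart apex was taken 10 days after induction. The sample titles call the hearts of both groups untreated. Recombination is directed to cardiomyocytes, while the RNA is that of the whole apex, so fewer cells of a type and less RNA per cell cannot be told apart. Values below are normalized log2 signals, so that a step of 1 is a doubling, and a gene's value is that of 1 probe. Levels of different probes are not compared with each other; where values of separate probes are combined, it is their differences between groups that are compared.

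Cardiomyocytes take up glucose through GLUT1, encoded by Slc2a1, which sits at the surface without a stimulus, and through GLUT4, encoded by Slc2a4, which waits in intracellular vesicles until insulin or contraction sends it to the membrane. Akt passes on the insulin signal by phosphorylating AS160 and its relative TBC1D1, which then stop inactivating the Rab GTPases that move GLUT4 vesicles. Hexokinases phosphorylate the glucose that enters and so keep it in the cell, and the alpha-arrestins TXNIP and ARRDC4, induced by sugar phosphates through the transcription factor MondoA, lower glucose uptake. Much of this control acts on proteins and their location, which an array of transcripts does not measure.

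The 7 arrays lay on 1 slide and were scanned at 1 time, with 50.9% to 55.7% of probes well above background and 0 saturated spots. The brightest Akt2 probe gave 11.64, 11.67 and 11.61 in DKO hearts, against 13.78, 13.70, 13.61 and 13.65 in control hearts, a log2 difference of -2.05 ± 0.07 (SE, limma, adjusted p = 0.000165). The other Akt2 probes differed by -2.29 ± 0.10 and by only -0.68 ± 0.12 (SE, adjusted p = 0.000295 and 0.0335 over probes by limma). Akt1 showed no fall, and both its probes were higher in DKO hearts, with 14.65 ± 0.04 (SD, n = 3) in DKO and 14.48 ± 0.06 (SD, n = 4) in control hearts for its brighter probe. Probe positions within these genes were not analysed here, and Akt1 signal from exons that were not removed would say nothing about the deletion. The 8 cardiomyocyte markers examined were above background on all 7 arrays. In DKO hearts 6 were lower and 2 higher, with a median log2 difference of -0.06. Limma called 0 of them, and 25% had an unadjusted p under 0.05, against 25.5% of all genes. Relative to the control mean, the list stood at 0.01, -0.06 and -0.15 in DKO hearts and from -0.03 to 0.04 in control hearts. Their part in the members' values was not tested. Of 5 atrial markers 3 passed the filter and of 7 skeletal muscle markers 6 did, and limma called 0 of either (2 of each list at an unadjusted p under 0.05). The array of control replicate 1 stood apart, at a correlation of 0.984 to 0.987 with the other controls, which correlated at 0.992 to 0.994 among themselves; DKO arrays correlated at 0.991 to 0.992 with each other and at 0.978 to 0.990 with controls.

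Slc2a1 was the member that passed the test. The other 4 transporters had positive log2 differences that did not pass. In limma's two-sided test, with Benjamini-Hochberg adjustment over 23679 genes, 1 of the 10 genes rose and 0 fell (adjusted p under 0.05). Over all genes 4.7% were called, 2.41% as higher and 2.29% as lower in DKO. Unadjusted p was below 0.05 for 5 members, namely the 5 transporters, and for 25.5% of all genes. The median log2 difference over the 10 genes was 0.26, against -0.02 over all genes tested. Marker lists of other cells also had positive medians: 8 mural markers, 6 higher and 2 lower in DKO, had a median of 0.27 with 1 called. Of them 75% had an unadjusted p under 0.05, against 25.5% of all genes, and 62.5% did not overlap, against 25.7%. Their list stood at 0.25 to 0.26 in DKO and -0.05 to 0.07 in control hearts. For 8 fibroblast markers the median was 0.18 with 0 called by limma (3 at an unadjusted p under 0.05), and the list stood at 0.11 to 0.26 in DKO and -0.13 to 0.06 in control hearts. Their part in the members' values was not tested. DKO and control values did not overlap for 4 members, all higher in DKO, while 25.7% of all genes did not overlap and 13.2% did so with the higher values in DKO. Over the 14 tested probes 1 was called, as higher, where 4.39% of all probes were called and 2.33% as higher in DKO. Groups did not overlap for 5 of the 14, all higher in DKO, against 25.2% of all probes and 13.6% with DKO higher.

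**Figure D1:**
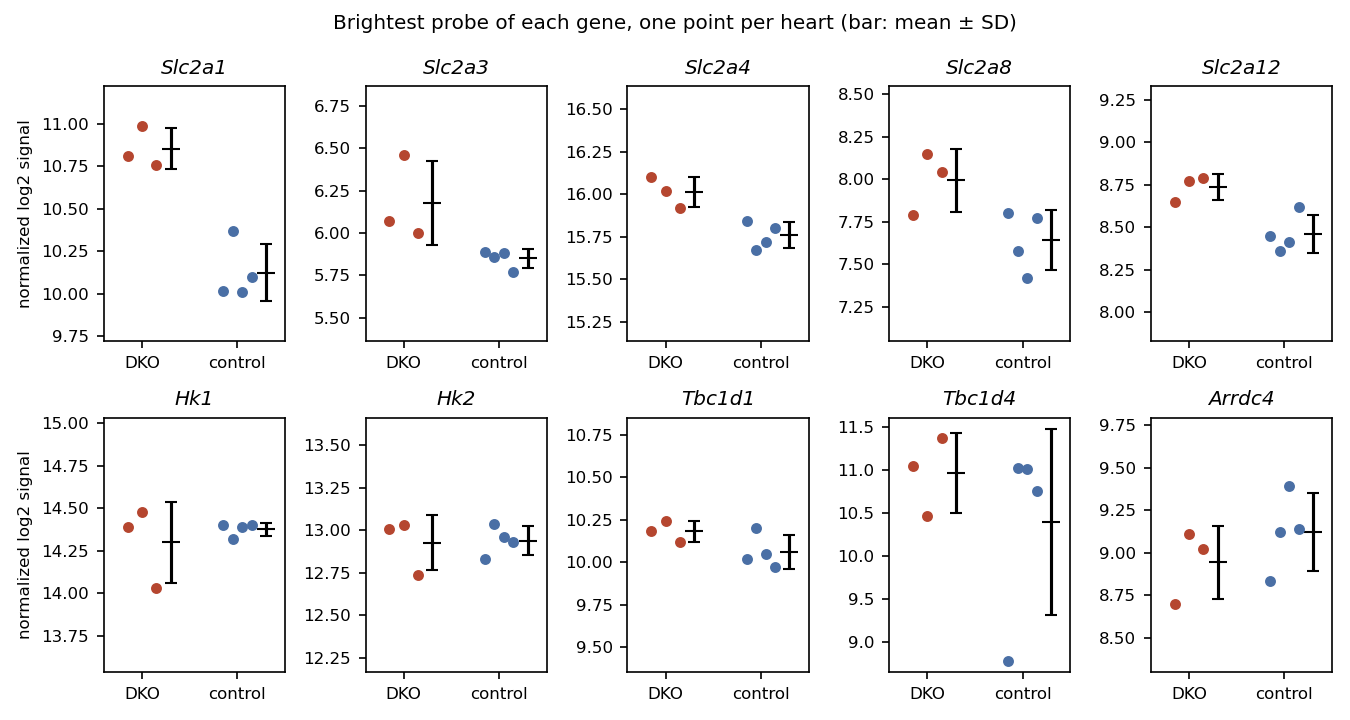
Normalized log2 signal of the brightest probe of each of the 10 genes, with a point for each heart, DKO left and control right, and bars for mean ± SD (n = 3 and 4). Panels have their own axes, which do not allow levels to be compared between genes. Slc2a1, Slc2a3, Slc2a4 and Slc2a12 show no overlap between the groups, Hk1 and Hk2 overlap, and 1 control heart lies far below the others for Tbc1d4.

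Slc2a1 encodes GLUT1, the basal glucose transporter that predominates in the fetal heart. Its probe gave 10.81, 10.99 and 10.76 in DKO hearts, against 10.02, 10.37, 10.01 and 10.10 in control hearts. Every DKO heart lay above every control heart, and control replicate 2 came closest. The mean was 10.86 ± 0.12 (SD, n = 3) in DKO and 10.13 ± 0.17 (SD, n = 4) in control hearts. This is a rise of 1.66-fold (log2 difference 0.73 ± 0.11, SE, 95% interval 0.46 to 0.998, adjusted p = 0.0225 by limma). The size moved little with the arrays used, from 0.66 without DKO replicate 2 to 0.81 without control replicate 2, but the call rests on nearly all of them. It held without control replicate 1 and without control replicate 2 (adjusted p = 0.0450 and 0.0225). It was lost without DKO replicates 1, 2 or 3 (adjusted p = 0.0785, 0.0764 and 0.0591) and without control replicates 3 or 4 (adjusted p = 0.0604 and 0.0752). Within the first row of the slide, where 1 DKO and 3 control arrays lay, the difference was 0.72, and within the second row, with 2 DKO arrays and 1 control array, it was 0.53.

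GLUT1 is also a transporter of endothelium, so endothelial markers are given beside it, followed by those of red cells. All 8 endothelial markers were higher in DKO hearts and limma called 0 of them, with 2 at an unadjusted p under 0.05, with a median log2 difference of 0.20. Relative to the control mean, the endothelial list stood at 0.22, 0.20 and 0.17 in DKO hearts and from -0.11 to 0.11 in control hearts. Of the 5 erythroid markers tested 0 passed (0 at an unadjusted p below 0.05), with a median of 0.12, and the list ranged from -0.14 to 0.34 in DKO and from -0.13 to 0.37 in control hearts. The erythroid marker Epb42 was above background on 0 arrays. The part of these cells in the Slc2a1 difference was not tested.

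**Figure D2:**
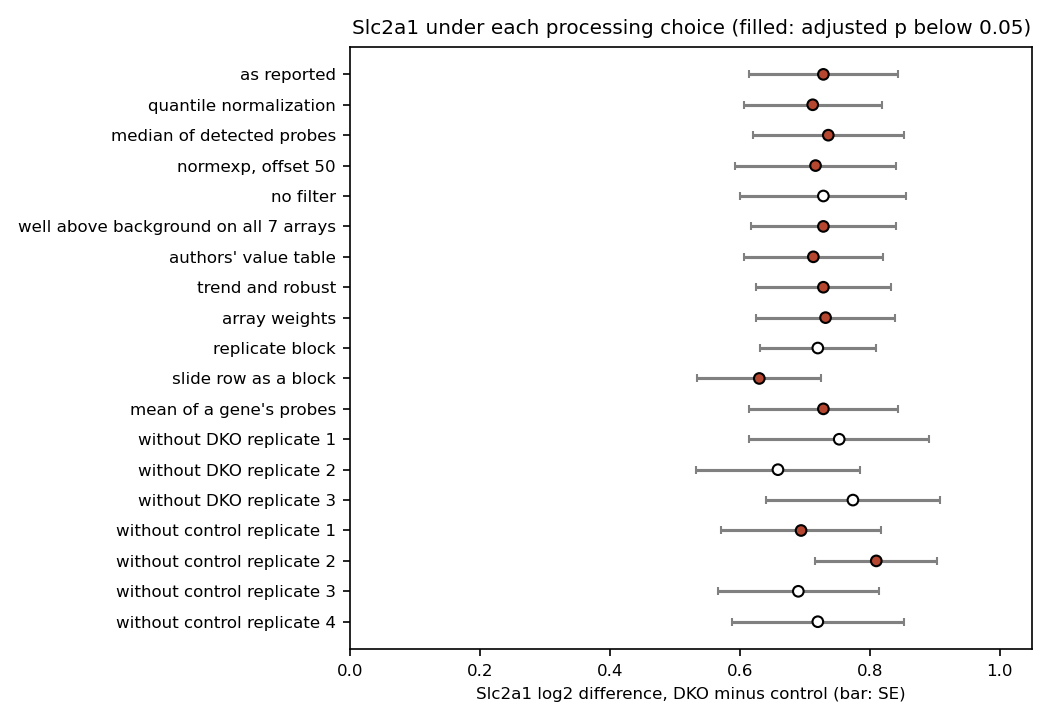
Log2 difference of Slc2a1, DKO minus control, on the horizontal axis for the reported fit and for each of 18 other processing choices (rows), with bars for the SE and filled points where the adjusted p was below 0.05. The difference lies between 0.63 and 0.81 throughout, and 11 of the 18 other choices keep the call.

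By Pearson correlation over the 7 arrays, the named genes whose signal was most like that of Slc2a1 were Aldh2, a mitochondrial aldehyde dehydrogenase (r = 0.996), the ubiquitin-conjugating enzyme gene Ube2b (r = 0.992) and Tmed4, of the early secretory pathway (r = 0.992). Their own log2 differences were 0.29, 0.28 and 0.25. These correlations span both groups and 7 points, and the group difference enters each of them, so they describe these arrays and nothing more.

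Slc2a4 encodes GLUT4, the insulin-regulated transporter of muscle and fat. DKO hearts gave 16.10, 16.02 and 15.92, against 15.84, 15.67, 15.72 and 15.80 in control hearts. The groups did not overlap, but the gap between the lowest DKO and the highest control heart was small, and the difference of 0.26 ± 0.08 (SE, 1.19-fold, 95% interval 0.07 to 0.44) did not pass the test (adjusted p = 0.110 by limma). It was positive in all 18 other fits and passed in 1 of them, with a trended and robust variance (adjusted p = 0.0405). Adipocytes carry GLUT4 as well. Of 6 adipocyte markers Plin1 was above background on 0 arrays and Adipoq and Retn on 1 of 7 each. Lep, measured on all 7, differed by -0.07 ± 0.15 (adjusted p = 0.804 by limma), Fabp4, which endothelium also makes, by 0.30 ± 0.11 (adjusted p = 0.138 by limma) and Cfd by 1.04 ± 0.44 (adjusted p = 0.191 by limma). Of these 3 tested markers limma called 0, while 2 had an unadjusted p under 0.05 (66.7%, against 25.5% of all genes). Relative to the control mean, the adipocyte list stood at 0.32, 0.35 and 0.24 in DKO hearts and from -0.18 to -0.02 in control hearts. The part of fat cells in the Slc2a4 value was not tested.

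Slc2a12 encodes GLUT12, a further transporter of muscle that insulin can move to the surface. Its brighter probe gave 8.65, 8.77 and 8.79 in DKO hearts, against 8.45, 8.36, 8.41 and 8.62 in control hearts. The lowest DKO heart lay just above the highest control heart, and the difference of 0.27 ± 0.09 (SE, 1.21-fold) did not pass (adjusted p = 0.119 by limma). The other Slc2a12 probe was not well above background on any array. Slc2a8 encodes GLUT8, an intracellular transporter. It gave 7.79, 8.15 and 8.04 in DKO hearts, against 7.80, 7.58, 7.42 and 7.77 in control hearts. Here the groups overlapped, DKO replicate 1 lying level with the highest control, and the difference was 0.35 ± 0.13 (SE, 1.27-fold, adjusted p = 0.154 by limma).

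Slc2a3 encodes GLUT3, the high-affinity transporter best known from neurons, platelets and leukocytes. One of its probes was not well above background on any array. The other gave 6.07, 6.46 and 6.00 in DKO hearts, against 5.89, 5.86, 5.88 and 5.77 in control hearts. DKO replicate 2 was the highest, and the difference of 0.32 ± 0.12 (SE, 1.25-fold, adjusted p = 0.155 by limma) became 0.18 without it. In that same heart the leukocyte and macrophage marker list, with 9 tested genes, stood at 0.32 above the control mean, against -0.08 and 0.16 in the other DKO hearts and -0.12 to 0.08 in control hearts. Cd79a of that list was above background on 0 arrays, and its tested genes gave 0 calls by limma, with 1 at an unadjusted p under 0.05. DKO replicate 2 was also the highest DKO heart for the fibroblast (0.26), erythroid (0.34) and adipocyte (0.35) marker lists. It was not the highest for the endothelial, mural, cardiomyocyte, atrial, skeletal muscle or neural and Schwann lists. The part of these cells in the Slc2a3 value was not tested. With normexp background correction the difference was 0.07 (adjusted p = 0.803 by limma).

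The hexokinases showed no difference that passed the test, with DKO and control hearts overlapping for both. Hk2 encodes hexokinase 2, the insulin-responsive form that can bind mitochondria and predominates in adult heart and skeletal muscle. It gave 13.01, 13.03 and 12.74 in DKO hearts, against 12.83, 13.04, 12.96 and 12.93 in control hearts, and the groups overlapped fully. Its difference was -0.02 ± 0.10 (SE, 95% interval -0.25 to 0.22, adjusted p = 0.938 by limma). Hk1 encodes hexokinase 1, the form found in most tissues. Its bright probe gave 14.39, 14.48 and 14.03 in DKO hearts, against 14.40, 14.32, 14.39 and 14.40 in control hearts. DKO replicate 3 was the lowest of the 7, as it also was for Hk2, and the difference was -0.08 ± 0.12 (SE, 95% interval -0.35 to 0.19, adjusted p = 0.698 by limma). Without that heart both differences turned positive, at 0.06 for Hk1 and 0.08 for Hk2. A second Hk1 probe was well above background in 1 DKO and 1 control heart and was not tested.

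**Figure D3:**
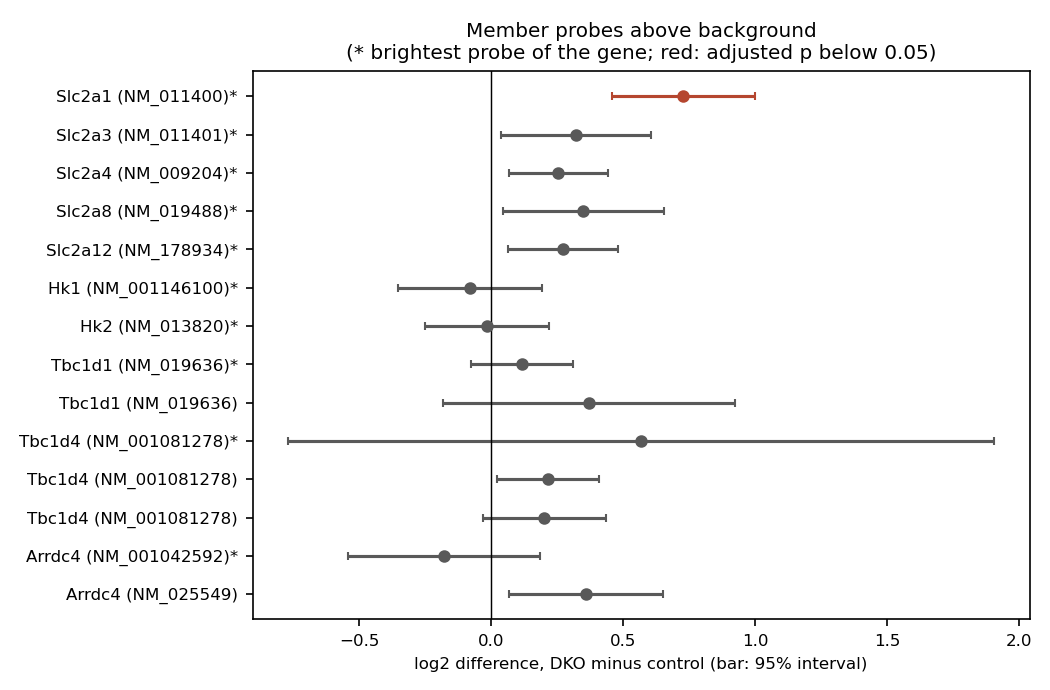
Log2 difference, DKO minus control, of the 14 member probes that passed the filter (rows, with the accession each probe is annotated to), with bars for the 95% interval from the fit over all probes. The Slc2a1 probe (red) passed an adjusted p of 0.05, the other 13 did not, and the brightest Tbc1d4 probe has the widest interval, from -0.77 to 1.91.

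Tbc1d4 encodes AS160, the Akt substrate that restrains GLUT4 vesicles, and 3 probes measured it. The brightest gave 11.05, 10.47 and 11.38 in DKO hearts, against 8.78, 11.03, 11.01 and 10.76 in control hearts. Control replicate 1 stood far below the other controls, and the difference of 0.57 ± 0.57 (SE, adjusted p = 0.566 by limma) became 0.03 without it (adjusted p = 0.948). The other probes of the same transcript did not show that low heart. One gave 9.47, 9.64 and 9.62 in DKO hearts, against 9.36, 9.45, 9.37 and 9.27 in control hearts, with no overlap and a difference of 0.21 ± 0.08 (SE, 1.16-fold, adjusted p = 0.166 over probes by limma). The last gave 9.39, 9.39 and 9.64 in DKO hearts, against 9.43, 9.25, 9.22 and 9.19 in control hearts, with overlap and a difference of 0.20 ± 0.10 (SE, 1.15-fold, adjusted p = 0.257 over probes by limma). All 3 differences were positive and none passed.

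Tbc1d1 encodes the relative of AS160 that is prominent in muscle and is phosphorylated by AMPK as well as Akt. Its bright probe gave 10.18, 10.24 and 10.12 in DKO hearts, against 10.02, 10.20, 10.05 and 9.97 in control hearts. The groups overlapped through control replicate 2, and the difference was 0.12 ± 0.08 (SE, 95% interval -0.08 to 0.31, adjusted p = 0.407 by limma). A dim probe, above background in 2 DKO and 2 control hearts, differed by 0.37 ± 0.24 (SE, adjusted p = 0.368 over probes by limma).

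Arrdc4 encodes an alpha-arrestin related to TXNIP, and its probes, annotated to different transcripts, went opposite ways. The brighter, for NM_001042592, gave 8.70, 9.11 and 9.02 in DKO hearts, against 8.83, 9.12, 9.39 and 9.14 in control hearts, a difference of -0.18 ± 0.16 (SE, adjusted p = 0.504 by limma). The dimmer, for NM_025549, gave 8.57, 8.20 and 8.48 in DKO hearts, against 8.07, 8.02, 8.25 and 7.89 in control hearts, a difference of 0.36 ± 0.12 (SE, adjusted p = 0.136 over probes by limma). Neither passed, and in both the groups overlapped. The signal of the NM_025549 probe minus that of the NM_001042592 probe was -0.13, -0.91 and -0.54 in DKO hearts, against -0.76, -1.09, -1.14 and -1.26 in control hearts. DKO replicates 1 and 3 lay above all controls and DKO replicate 2 did not, and this contrast between probes, picked after its values were seen, was not tested.

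**Figure D4:**
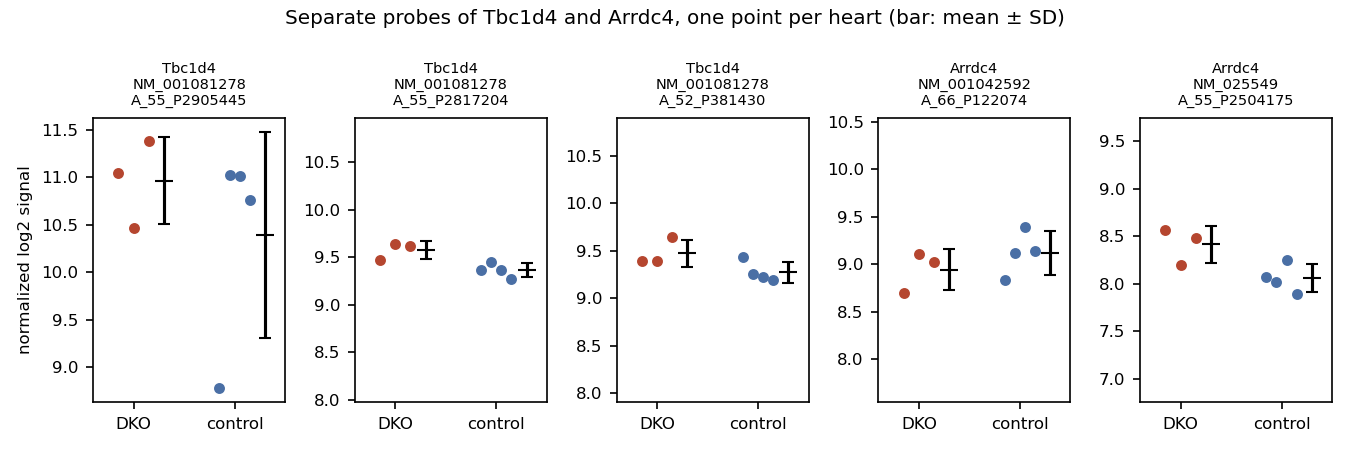
Normalized log2 signal of the 3 Tbc1d4 probes and the 2 Arrdc4 probes, with a point for each heart, DKO left and control right, and bars for mean ± SD (n = 3 and 4). All panels span 3 log2 units. A low control heart appears in the brightest Tbc1d4 probe only, and the Arrdc4 probes differ in direction.

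To ask whether members of the same role moved unlike each other, 4 pairs were compared by the per-heart difference of their log2 signals in an exact permutation test (two-sided, all 35 assignments, smallest possible p = 0.0286, adjusted over the 4 pairs). The DKO minus control difference of Slc2a1 was larger than that of Slc2a4 by 0.47 ± 0.14 (SE, n = 3 and 4), with DKO hearts at -5.29 to -5.03 and control hearts at -5.81 to -5.30 and no overlap (exact p = 0.0571, adjusted p = 0.229). A pair that alone had the smallest p would have an adjusted p of 0.114, so the adjusted test could not have called a single pair. For Slc2a4 against Slc2a12 the difference in response was -0.02 ± 0.10 (SE; exact p = 0.829, adjusted p = 0.829). Hk2 and Hk1 differed by 0.06 ± 0.08 (SE; exact p = 0.429, adjusted p = 0.829). For Tbc1d4 against Tbc1d1 it was 0.45 ± 0.61 (SE; exact p = 0.657, adjusted p = 0.829) with the brightest Tbc1d4 probe, and 0.10 and 0.09 with its other probes (exact p = 0.143 and 0.514).

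Promoter sequences were examined for letters known from Akt-controlled and glucose-controlled transcription. RefSeq's table on GRCm38.p6 held 10 start sites for 8 of the 10 genes, each as 250 bases before and 50 after the start; it held no entry for Slc2a3 and Slc2a4. The FoxO motif GTAAACA, searched on both strands, was in 0 of the 10 windows, where 3.65% of all 32851 windows hold it. The E-box CACGTG, which MondoA and other basic helix-loop-helix factors bind, was in 1 of 10, that of Arrdc4, against 7.15% of all windows. ACGTG, the core bound by hypoxia-inducible factors, was in 4 of 10, against 19.6% of all windows. An E-box always contains it. The windows with ACGTG were those of Slc2a1, Hk1, Hk2 and Arrdc4. Of these genes Slc2a1 alone passed the test, while Hk1, Hk2 and Arrdc4 had log2 differences of -0.08, -0.02 and -0.18. Whether the motif has a part in the Slc2a1 difference was not tested. A match is a description of the letters and no evidence of binding. Shown are Slc2a1, the member that rose, with ACGTG in capitals, and Arrdc4, with its E-box in capitals. Txnip, the relative of Arrdc4 described next, is shown with GTAAACA in capitals. Txnip is no member and was picked with earlier results of these data known. The windows of the other genes in its list were not looked at singly. The Slc2a1 window is chr4:119108495-119108794 on the plus strand, that of Arrdc4 chr7:68749189-68749488 on the minus strand, and that of Txnip chr3:96557707-96558006 on the plus strand.
Slc2a1: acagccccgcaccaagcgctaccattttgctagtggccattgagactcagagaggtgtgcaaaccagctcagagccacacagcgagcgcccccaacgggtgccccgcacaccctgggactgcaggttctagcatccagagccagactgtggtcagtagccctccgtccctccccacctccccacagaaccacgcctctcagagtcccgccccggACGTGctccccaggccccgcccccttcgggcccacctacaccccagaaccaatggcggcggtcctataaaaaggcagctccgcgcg
Arrdc4: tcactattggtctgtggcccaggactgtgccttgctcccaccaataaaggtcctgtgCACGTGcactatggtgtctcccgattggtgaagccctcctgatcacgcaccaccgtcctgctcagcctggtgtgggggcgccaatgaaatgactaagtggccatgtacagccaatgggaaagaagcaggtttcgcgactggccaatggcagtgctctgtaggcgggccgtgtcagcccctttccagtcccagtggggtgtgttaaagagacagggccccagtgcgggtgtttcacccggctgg
Txnip: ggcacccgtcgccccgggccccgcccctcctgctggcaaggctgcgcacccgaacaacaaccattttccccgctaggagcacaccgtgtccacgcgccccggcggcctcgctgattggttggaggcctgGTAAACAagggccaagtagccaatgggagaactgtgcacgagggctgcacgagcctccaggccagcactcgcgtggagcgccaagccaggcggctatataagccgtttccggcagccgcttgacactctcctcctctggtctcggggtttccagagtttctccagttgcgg
The capitals begin 36 bases before the start in Slc2a1, 193 in Arrdc4 and 121 in Txnip.

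Among the other alpha-arrestins and the MondoA factors, 2 of 7 tested genes rose and 0 fell, where 4.7% of all genes were called, and the list's median was 0.29. Txnip, which promotes endocytosis of GLUT1 and GLUT4, gave 15.58, 15.15 and 14.90 in DKO hearts, against 14.18, 14.24, 14.60 and 14.20 in control hearts, with no overlap. Its difference was 0.91 ± 0.18 (SE, 1.87-fold, adjusted p = 0.0410 by limma). Arrdc3, an arrestin that controls adrenergic receptors and energy use in mice, gave 10.27, 9.70 and 10.31 in DKO hearts, against 9.05, 9.44, 9.27 and 9.33 in control hearts. It rose by 0.82 ± 0.17 (SE, 1.76-fold, adjusted p = 0.0468 by limma), again with no overlap. Mlxipl, which encodes the glucose-responsive factor ChREBP, differed by 0.51 ± 0.12 (SE, adjusted p = 0.0646 by limma), and MondoA itself, Mlxip, by 0.29 ± 0.40 (SE). With 1 array left out Txnip passed in 0 of 7 fits and Arrdc3 in 1, that without DKO replicate 2, and the count for the list ranged from 0 to 1. Under 11 other processing choices Txnip passed in 8 and Arrdc3 in 7; with slide row as a block neither did (adjusted p = 0.107 and 0.109 by limma). The list's median was 0.07 without DKO replicate 2, 0.09 without control replicate 1 and 0.10 with slide row as a block.

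The machinery of GLUT4 vesicles had 2 of 28 genes that rose and 0 that fell, or 7.14% called, against 4.7% of all genes, with a median of 0.11. Aspscr1, 1 of the 2, encodes TUG, the tether that holds GLUT4 vesicles inside the cell, and it gave 10.34, 10.29 and 10.38 in DKO hearts, against 9.87, 9.93, 9.88 and 10.05 in control hearts. All DKO hearts lay above all controls, and the rise was 0.40 ± 0.07 (SE, 1.32-fold, adjusted p = 0.0349 by limma). Values of the groups did not overlap in 15 of the 28 genes (53.6%, against 25.7% of all genes). Among those that did not pass, Cav3, the muscle caveolin, differed by -0.30 ± 0.07 (adjusted p = 0.0527 by limma) and the vesicle SNARE gene Vamp5 by 0.30 ± 0.08 (adjusted p = 0.0743 by limma). Leaving out 1 array left Aspscr1 called in 0 of 7 fits, and the count for the list was 1 without control replicate 1 and 0 without any other array. With slide row as a block Aspscr1 had an adjusted p of 0.0857 by limma, and the count was 0.

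Of 19 kinases and adaptors that act on AS160, 0 rose and 1 fell, a share of 5.26% that is near the 4.7% of all genes. Prkag2, a regulatory subunit of AMPK, gave 11.29, 11.12 and 11.07 in DKO hearts, against 11.91, 11.69, 11.55 and 11.81 in control hearts, with no overlap (log2 difference -0.58 ± 0.11, SE, adjusted p = 0.0342 by limma). Of 21 Rab GTPases and effectors downstream of AS160, 0 rose and 1 fell, or 4.76%, again near that of all genes, and 9.52% had an unadjusted p under 0.05, against 25.5% of all genes. Ralgapa2, a subunit of the complex that inactivates RalA and is itself an Akt substrate, fell by 0.57 on the log2 scale, with 9.89, 9.70 and 9.60 in DKO hearts against 10.32, 10.42, 10.34 and 10.13 in control hearts (adjusted p = 0.0333 by limma). Rab10, an AS160 target in fat cells, differed by -0.05 ± 0.07 and Rab8a, one in muscle cells, by -0.11 ± 0.11 (SE). With 1 array left out, Prkag2 passed in 1 of 7 fits, that without control replicate 3, and Ralgapa2 in 0. Neither passed with slide row as a block (adjusted p = 0.0883 and 0.0514 by limma).

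The remaining transporters and hexokinases gave 0 calls. Of 11 other GLUT and sodium-glucose transporters 5 did not pass the filter, and among the 6 tested limma called 0, with 0 at an unadjusted p under 0.05. The largest differences among them were 1.001 ± 0.60 for Slc2a6 and -0.65 ± 0.38 for Slc2a13 (SE). The Slc2a6 probe was dim, well above background on only 5 arrays, with 4.69 ± 1.12 (SD) in control hearts. Of 8 tested genes for other hexokinases and glucose phosphate handling 0 passed (1 at an unadjusted p below 0.05), with a median of -0.07. Of 15 regulators of Slc2a4 transcription 0 passed (8 at an unadjusted p below 0.05, or 53.3%, against 25.5% of all genes), with a median of 0.03. They included the MEF2 factor genes Mef2d and Mef2c at 0.31 ± 0.09 and -0.32 ± 0.10 (adjusted p = 0.0865 and 0.117 by limma). Mef2a, of the same family, differed by -0.14 ± 0.10 (adjusted p = 0.395 by limma), and Foxo1 by 0.32 ± 0.09 (adjusted p = 0.0916 by limma).

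**Figure D5:**
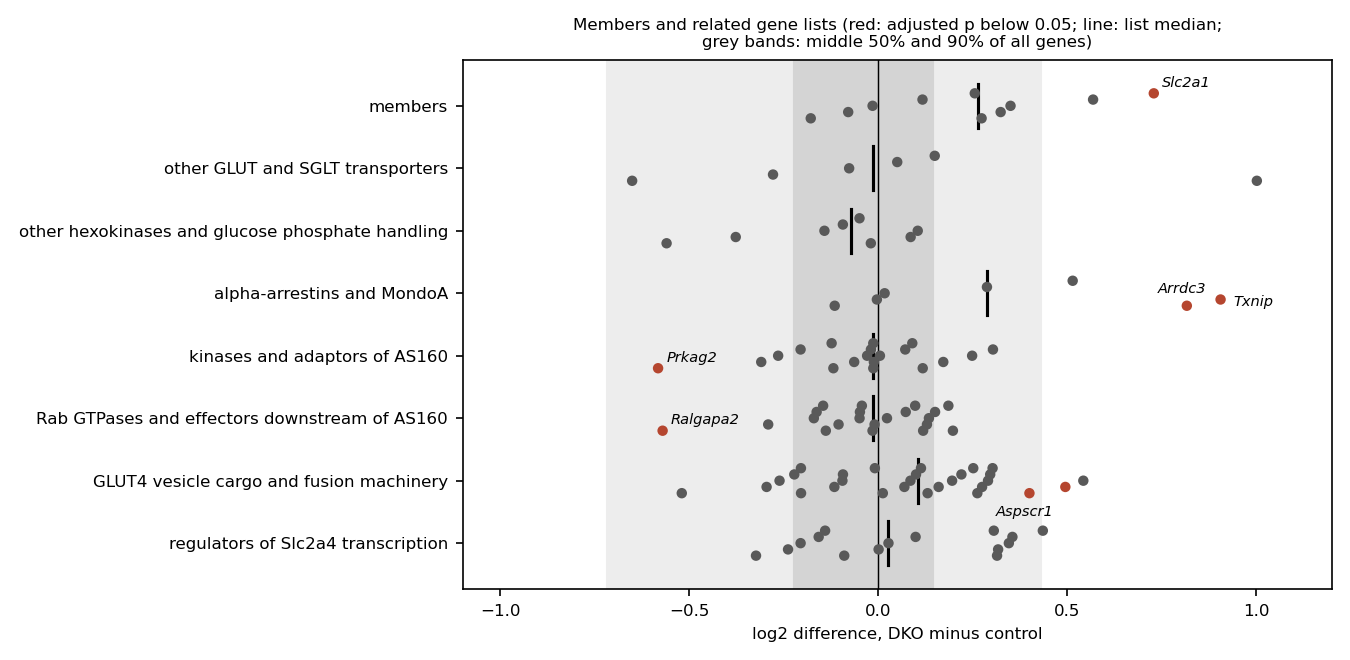
Log2 difference, DKO minus control, of each tested gene in the 10-gene set and in 7 related lists (rows), with the list median as a line, genes past an adjusted p of 0.05 in red, and grey bands for the middle of all 23679 genes (25th to 75th and 5th to 95th percentile). Slc2a1, Txnip, Arrdc3 and Aspscr1 lie to the right, and Prkag2 and Ralgapa2 to the left.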

How the data were processed

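Total RNA of the heart apex (100 ng per mouse) was labelled with Cy3, and each mouse had its own 1-colour array (Agilent design 074809). The authors quantified the arrays with Feature Extraction 12.0.3.1, on probe positions of build mm9, and deposited processed, median and local background signals as intensities with flags for background and outliers, per the file headers. A table of processed log2 values for 56745 probes was also deposited. Over tested probes its columns matched quantile-normalized signals centred on each probe's median (r from 0.99995 to 0.99998); the sources used here do not give its making.

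Processed signals were put on the log2 scale without outlier spots, and each array's 75th percentile was subtracted, with the mean of these (9.14) added back. Probes were named through their accession and RefSeq genes of GRCm38.p6 (32994 of 56605 matched). The other 23611 kept their array identifier, and each such identifier was treated as a gene. A gene was represented by its brightest probe among those well above background on at least 3 arrays and with no missing value, which left 23679 genes and 30467 probes. limma 3.58.1 (R 4.3.3) compared DKO with control, with no term besides group and with 5 residual plus 2.11 prior degrees of freedom, over genes and, for separate probes, over probes. An adjusted p below 0.05 was a call.

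The members, lists and tests were chosen with earlier results of these data known. The text names all members and probes, Akt1 and Akt2, called genes of each list or those with the smallest p, and the 3 genes most correlated with a called member. Mlxip, Mlxipl, Cav3, Vamp5, Rab10, Rab8a and Mef2a were added after their values were seen. Epb42, Plin1, Adipoq, Fabp4, Lep, Retn, Cfd and Cd79a were added as markers. Normexp used median signals, since the files carry no mean signal. Some list genes that the rule would name are not reported here. Each mouse is a separate animal. The number of arrays limits the precision. Replicate numbers were not taken as pairing DKO with control: deviations from group means correlated at 0.13, 0.01 and 0.03 for numbers 1 to 3. Alternatives changed the normalization, background correction, filter, source of values, variance model, blocks, probe choice and arrays used.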

Additional observations from a re-analysis of the deposited data

Results flagged for a closer look

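For the brightest Tbc1d4 probe, control replicate 1 gave 8.78, far below the other controls at 10.76 to 11.03: its gap to the nearest of them was 0.881 of the group's whole range, past Dixon's 95% critical value of 0.829 for 4 samples. The control groups of 14 member probes were examined, and chance flags about 5% of such groups. The other Tbc1d4 probes gave 9.36 and 9.43 in that heart, within or above the range of the other controls.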

How the results depend on the processing

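Over 18 alternatives the log2 differences of the 5 transporters and of Tbc1d1 and Tbc1d4 stayed positive. The count of called genes, 1114 as reported, was 610 with normexp, 121 with no filter, 2028 with a trended and robust variance, 1680 with array weights and 288 with slide row as a block. Called members, 1 as reported, numbered 0 with no filter and 2 with the trended and robust variance, and called member probes 0 and 2, with 0 under the slide row block. Under the replicate block 1 gene, 0 members and 0 member probes were called, and Slc2a1 gave 0.72 (adjusted p = 0.127 by limma). This fit leaves few residual degrees of freedom, and the numbers share no stated origin. Slc2a1 had an adjusted p of 0.0978 with no filter, where 45553 genes were tested. Leaving out 1 array gave 160 to 1127 called genes, 0 to 1 called members and 0 to 1 called member probes. Hk1 then ranged from -0.17 to 0.0557 and Hk2 from -0.0675 to 0.0765. For the pairs it ranged from -0.10 to 0.0529 for Slc2a4 against Slc2a12 and from -0.0729 to 0.73 for Tbc1d4 against Tbc1d1. With normexp Slc2a4 against Slc2a12 was 0.0042. Averaging all probes of a gene turned Arrdc4 to 0.0903, its probes having opposite signs. The cause of the other changes was not tested. The pair alternatives were chosen after seeing the data. Signal over background limits the probes of Slc2a3, Slc2a12 and Hk1 that were not tested.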
